A study of Mus musculus with 16 samples.

Results

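Immediate early genes are transcribed within minutes of a growth factor, an adhesion signal or a stress, without new protein synthesis, and most of their transcripts decay quickly. The 10 genes described here, of 54532 in the deposited tables, are Fos, Fosb, Jun, Junb, Egr1, Egr2, Atf3, Ier2, Ier3 and Myc. They were taken by gene symbol, each symbol matched 1 row of the count table and 1 of the FPKM table, and all 10 passed the filter on low counts. They were read in all 16 libraries of a study of αV integrin in macrophages and in cardiac remodeling after infarction.

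The cells were macrophages grown from tibial bone marrow of wild-type C57BL/6J mice aged 2 to 3 months. Marrow was held for 24 h in medium with 15% serum and CSF-1 at 12 ng/ml, and the cells that had not attached were then cultured for 48 h with CSF-1 at 120 ng/ml, the growth factor that macrophages need. The attached cells were passaged once, onto dishes coated overnight with fibronectin (10 µg/ml), a matrix glycoprotein bound by integrins, or onto normal dishes, and grown to confluence. All groups then received an antibody at 10 µg/ml for 24 h, either a control IgG or a neutralizing antibody against ITGAV, the αV integrin subunit. The groups, of 4 libraries each, are called uncoated IgG, uncoated anti-ITGAV, fibronectin IgG and fibronectin anti-ITGAV. All groups shared the CSF-1 culture and a 24 h antibody treatment, so the levels are those after a day and not the first minutes of a response. Nothing in the labels says whether the 4 libraries of a group came from separate mice or cultures, so the p-values measure the spread between these libraries, which may be technical.

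Fos, Fosb, Jun, Junb and Atf3 encode basic leucine zipper (bZIP) proteins. Fos proteins bind DNA only as partners of a Jun protein, and the pair is called AP-1, while Atf3 pairs with itself or with Jun proteins and is known in macrophages for restraining inflammatory genes. Egr1 and Egr2 are zinc finger transcription factors, and Egr2 also marks alternatively activated macrophages. Fos, Egr1 and Egr2 are classical targets of serum response factor and its ETS partners, which are phosphorylated by ERK, the kinase that growth factor receptors and integrins activate. Jun and Atf3 respond to the stress kinases JNK and p38. Myc drives ribosome production and growth after CSF-1, and Ier2 and Ier3 are small growth factor and stress response genes.

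Total counts lay between 27995035 and 43413650 per library. A gene with no count in a library could still have up to 3 counts there, which is 0.0688 to 0.106 counts per 1000000 of the TMM-scaled total (CPM), and this limit covers counting error only. All 15 macrophage markers examined, among them Csf1r, Adgre1 and Cd68, were detected, with a summed level of 32030 to 41410 CPM over the 16 libraries. T and NK cell markers summed to at most 0.86 CPM and erythroid markers to at most 0.683 CPM. Dendritic cell markers summed to 2.05 to 4.45 CPM, fibroblast and stromal markers to 14.4 to 26.4 CPM and megakaryocyte markers to 394 to 702 CPM. One library, fibronectin anti-ITGAV 3, stood apart. It had 3.67% of its counts on mitochondrial genes, against 1.30 to 1.60% in the other 15, and its genes fell off with rising GC content. The Spearman rho between GC content and deviation from each gene's mean over the 16 libraries was -0.704, against -0.296 to 0.546 in the others. Where it changes a call, a sign or the size of a member's change, the value without it is given beside the result.

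Upstream sequences are shown for Fos, Egr2, Jun and Atf3, members that the results turn on and for which a window was used, so that the motifs they hold can be seen. No window was used for Egr1, Ier2 and Myc. From the RefSeq promoter table (GRCm38.p6), 11 windows of 250 bases upstream of an annotated start were used, for 7 of the 10 members. The windows are printed 5' to 3' on the strand of the gene, with the matches named beside each window in capitals. A CCAAT match in the Jun window and 1 in the Egr2 window stay in lower case. For Fos (plus strand, chr12:85473640-85473889), the capitals mark TGACG, the core of the cAMP response element, at positions -129 and -66 counted back from the start, and TATAAA, the TATA box, at -33.
Fos: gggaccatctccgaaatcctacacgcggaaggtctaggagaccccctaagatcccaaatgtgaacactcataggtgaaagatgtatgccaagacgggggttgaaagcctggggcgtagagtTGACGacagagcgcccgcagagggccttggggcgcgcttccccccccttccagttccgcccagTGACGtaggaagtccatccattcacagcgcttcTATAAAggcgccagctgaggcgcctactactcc

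For Egr2 (plus strand, chr10:67537619-67537868), the capitals mark TGACG on either strand, at positions -111 and -55, and between them a CArG box, the sequence bound by serum response factor, at -72.
Egr2: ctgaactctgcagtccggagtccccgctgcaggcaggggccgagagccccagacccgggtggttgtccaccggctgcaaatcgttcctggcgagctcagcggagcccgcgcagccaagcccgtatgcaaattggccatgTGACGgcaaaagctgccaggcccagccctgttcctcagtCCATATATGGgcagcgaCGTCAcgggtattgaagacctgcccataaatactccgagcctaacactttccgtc

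For Jun (minus strand, chr4:95052223-95052472), the capitals mark the TGANNTCA element that Jun and Atf proteins bind as a pair, at -45.
Jun: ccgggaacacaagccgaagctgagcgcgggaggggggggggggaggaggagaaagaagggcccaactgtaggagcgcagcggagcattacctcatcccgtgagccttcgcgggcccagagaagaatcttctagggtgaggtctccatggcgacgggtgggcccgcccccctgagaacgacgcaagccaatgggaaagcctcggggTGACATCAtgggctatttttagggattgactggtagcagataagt

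For Atf3, the 30 bases next to a RefSeq start (minus strand, chr1:191183334-191183363) hold the reverse complement of TGACG in capitals, at -7.
Atf3: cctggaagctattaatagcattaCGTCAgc

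Of the 11 member windows, 7 held TGACG on either strand, from Fos, Fosb, Junb, Egr2 and Atf3, and 17.7% of all 32817 windows of the table did. The CArG box, found in 1.5% of all windows, stood in 4 member windows, all of Egr2. Bases farther upstream than a window were not searched, for Fos or any other member, and no window was used for Egr1. Whether Fos or Egr1 has a CArG box outside the windows was therefore not tested. TGANNTCA (11.9% of all windows) stood in the Jun window alone among the member windows, and TATAAA (12.4%) in that of Fos alone. None of the member windows held the full TGACGTCA (1.5% of all), the AP-1 element TGANTCA (6.8%) or the NF-kB element (1.4%). CCAAT stood in 6 member windows, of Jun, Junb, Egr2 and Ier3, and in 33.8% of all. Overlapping windows of Egr2 share most of their bases, and a match is a stretch of letters, not a site shown to be used.

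Levels between genes are compared in deposited FPKM, which is per length of gene. In uncoated IgG cells, Atf3 was the highest member with a mean of 50.4 FPKM, followed by Jun (29.8 FPKM), Junb (28.6 FPKM) and Ier3 (20.2 FPKM). Ier2 (9.07 FPKM), Fos (7.71 FPKM), Myc (2.84 FPKM) and Egr2 (1.65 FPKM) came next, and Egr1 (0.186 FPKM) and Fosb (0.0509 FPKM) were near the floor. The libraries of Jun and Junb, and of Ier2 and Fos, overlapped in that group, and no other neighbours in the order did. Atf3 stayed highest and Fosb lowest in all 4 groups. In fibronectin anti-ITGAV cells the order was Atf3 (68.4 FPKM), Jun (38.5 FPKM), Junb (23.7 FPKM), Fos (17.8 FPKM), Ier3 (16.1 FPKM), Ier2 (9.63 FPKM), Myc (9.02 FPKM), Egr2 (3.47 FPKM), Egr1 (0.449 FPKM) and Fosb (0.0614 FPKM). There Fos stood above Ier3 and Ier2 in mean, although the libraries of Fos and Ier3 still overlapped, as did those of Jun and Junb, Junb and Fos, and Ier2 and Myc.

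**Figure D1:**
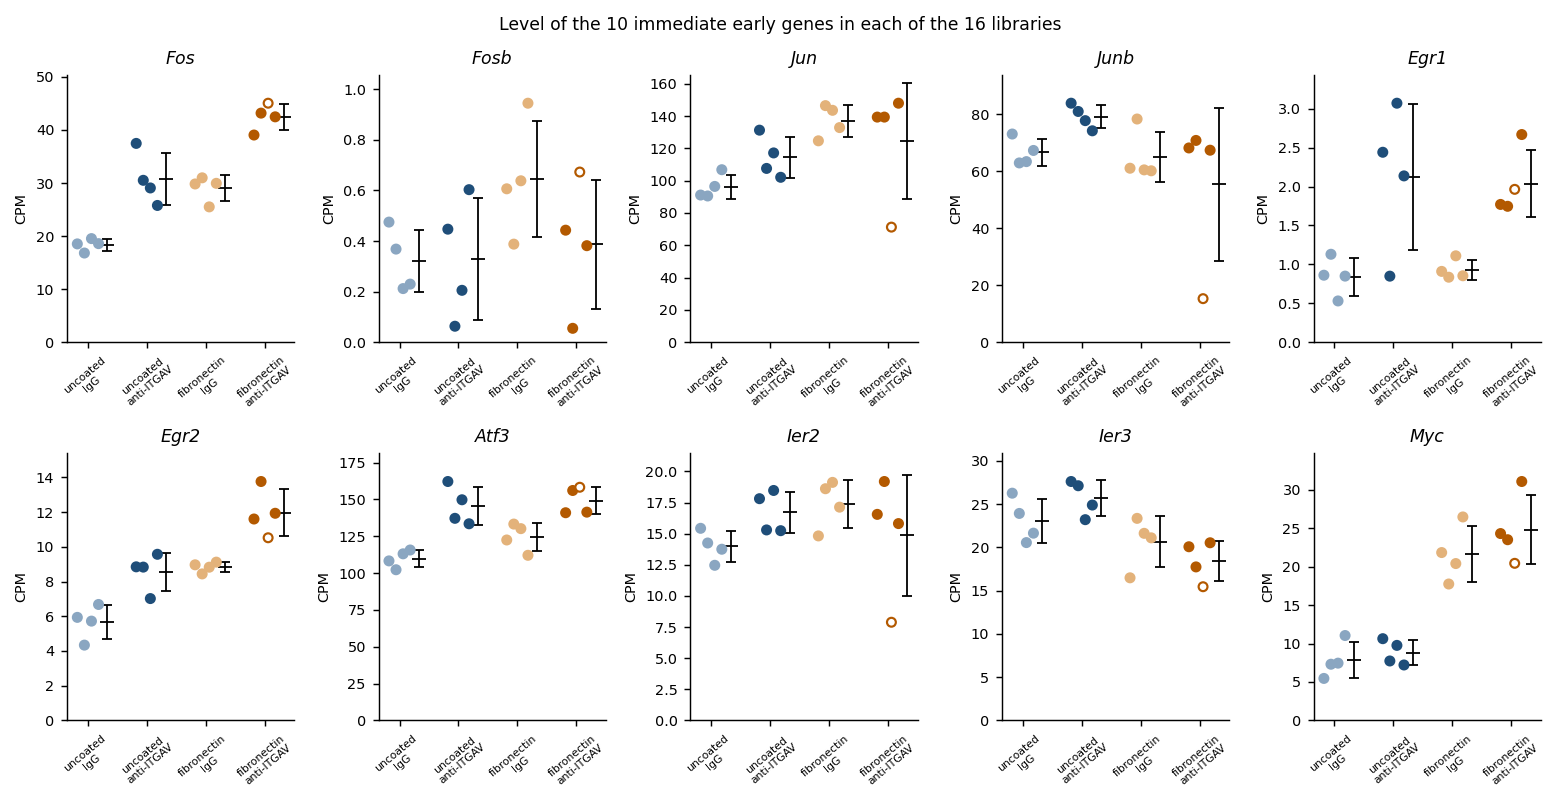
Level of each of the 10 genes in every library, in CPM on a linear axis, 1 panel per gene, with 4 libraries per group as points and the mean ± SD as bars; the open circle is library fibronectin anti-ITGAV 3. Fos rises from 16.8 to 19.5 CPM in uncoated IgG libraries to 39.1 to 45.05 CPM in fibronectin anti-ITGAV libraries, Myc separates by coating, and the open circle lies far below its group for Jun, Junb and Ier2.

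Fos had the clearest antibody difference of the 10. In uncoated IgG libraries it was at 18.5, 16.8, 19.5 and 18.6 CPM, and in uncoated anti-ITGAV libraries at 37.5, 30.5, 29.1 and 25.8 CPM. On fibronectin it was at 29.8, 31.0, 25.5 and 29.9 CPM with IgG and at 39.1, 43.2, 45.05 and 42.5 CPM with anti-ITGAV. On either coating every anti-ITGAV library was above every IgG library. On uncoated dishes the log2 change was 0.74 ± 0.11 (SE), or 1.67-fold, with an edgeR adjusted p of 0.0264. Fos was the 2nd gene by p, and 0.0129% of the 15469 tested genes (2 genes) were called in that comparison, with 3.04% under 0.05 before adjustment. On fibronectin the log2 change was 0.55 ± 0.11, or 1.46-fold, with an edgeR adjusted p of 0.176, so it was not called there. Fos was 9th by p on fibronectin, where 0.0129% of genes (2 genes) were called. None of the 10 genes was called on fibronectin by edgeR, where 720 genes (4.65%) were under 0.05 before adjustment. DESeq2 called 19 genes there, Fos among them. The call of Fos on uncoated dishes depended on single libraries: its edgeR adjusted p rose to 0.0902 to 0.247 without any 1 of the 4 uncoated IgG libraries, and to 0.0704 to 0.095 without uncoated anti-ITGAV 1, 2 or 3. It also missed the threshold without fibronectin IgG 1 (0.0572) or 4 (0.0555) and without fibronectin anti-ITGAV 2 (0.0536) or 4 (0.0587), and held without the other 5, while the log2 change itself stayed between 0.63 and 0.82 over all 16 omissions.

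Averaged over the coatings, Fos rose by 0.64 ± 0.08 on the log2 scale, or 1.56-fold, with an edgeR adjusted p of 0.001. In that comparison 0.0711% of all genes (11 genes) were called, 0.0388% being called higher, as Fos was, with 3.59% under 0.05 before adjustment, and Fos was the 3rd by p. Fos was called without any 1 of the 16 libraries, with edgeR adjusted p between 0.000398 and 0.00521.

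Atf3, the most abundant member per length, stood at 108, 102, 113 and 116 CPM in uncoated IgG libraries and at 162, 137, 149.8 and 133.5 CPM in uncoated anti-ITGAV libraries. On fibronectin it was at 122.5, 133, 130.2 and 112 CPM with IgG and at 141.0, 156, 158 and 141 CPM with anti-ITGAV. The antibody groups did not overlap on either coating. The log2 changes were 0.41 ± 0.09 on uncoated dishes (edgeR adjusted p = 0.386, 7th gene by p) and 0.26 ± 0.09 on fibronectin (edgeR adjusted p = 0.721, 100th by p). Averaged over coatings Atf3 was 0.33 ± 0.06 higher on the log2 scale, or 1.26-fold, and missed the threshold with an edgeR adjusted p of 0.0517.

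Egr2 was at 5.93, 4.34, 5.72 and 6.68 CPM in uncoated IgG libraries and at 8.85, 8.83, 7.02 and 9.57 CPM in uncoated anti-ITGAV libraries. On fibronectin it was at 8.96, 8.44, 8.82 and 9.12 CPM with IgG and at 11.6, 13.8, 10.5 and 11.9 CPM with anti-ITGAV. Here too the antibody groups did not overlap on either coating. The log2 change was 0.59 ± 0.14 on uncoated dishes (edgeR adjusted p = 0.495) and 0.44 ± 0.14 on fibronectin (edgeR adjusted p = 0.721). The average over coatings was 0.52 ± 0.10, or 1.43-fold, with an edgeR adjusted p of 0.0623.

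Egr1, low in all libraries at 15 to 120 counts, had the largest antibody fold of the 10 genes and the widest scatter among these 4. It was at 0.861, 1.13, 0.53 and 0.849 CPM in uncoated IgG libraries and at 2.44, 0.849, 3.07 and 2.14 CPM in uncoated anti-ITGAV libraries, so that uncoated anti-ITGAV 2 lay among the IgG values. On fibronectin it was at 0.91, 0.835, 1.11 and 0.854 CPM with IgG and at 1.77, 1.75, 1.97 and 2.67 CPM with anti-ITGAV, with no overlap. The log2 changes were 1.33 ± 0.32 on uncoated dishes (edgeR adjusted p = 0.495) and 1.13 ± 0.32 on fibronectin (edgeR adjusted p = 0.721). The average of 1.23 ± 0.23, or 2.34-fold, had an edgeR adjusted p of 0.0517, and Egr1 was called in 1 of the 16 fits that left out 1 library. That fit left out uncoated anti-ITGAV 2, the library among the IgG values (0.00377), and the others gave 0.0543 to 0.162.

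The genes that did not overlap between antibodies on fibronectin were 4 (Fos, Egr1, Egr2 and Atf3, all higher with anti-ITGAV), where 1.05% of all genes were higher without overlap. On uncoated dishes the non-overlapping genes were Fos, Junb, Egr2 and Atf3, all higher with anti-ITGAV, where 2.24% of all genes were. DESeq2, on the same counts, called Fos, Egr1, Egr2 and Atf3 on uncoated dishes and in the average over coatings. With edgeR and without library fibronectin anti-ITGAV 3, the average over coatings called Fos, Egr2 (adjusted p = 0.0277) and Atf3 (adjusted p = 0.024). Leaving out any 1 of the other 15 libraries called neither Egr2 (up to 0.211) nor Atf3 (up to 0.195).

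None of the other 6 members was called with the antibody. Jun, the main partner of Fos in AP-1, was at 91.1, 90.5, 96.45 and 107 CPM in uncoated IgG libraries and at 131, 108, 117 and 102 CPM with anti-ITGAV, with overlap (log2 change 0.25 ± 0.17, edgeR adjusted p = 0.988). Junb was at 73.1, 62.9, 63.4 and 67.3 CPM in uncoated IgG libraries and at 83.9, 81.0, 77.8 and 74.2 CPM with anti-ITGAV. Those Junb groups did not overlap, but the model's SE of 0.29 was larger than its log2 change of 0.25, and that SE rests on a spread shared by all 4 groups. Ier2, Ier3 and Myc changed by 0.26 ± 0.19, 0.15 ± 0.12 and 0.17 ± 0.20 on the log2 scale on uncoated dishes, each with an edgeR adjusted p of 0.988. On fibronectin, Jun, Junb, Ier2 and Ier3 changed by -0.14 ± 0.17, -0.23 ± 0.29, -0.23 ± 0.19 and -0.16 ± 0.13, and Myc by 0.20 ± 0.19, with edgeR adjusted p from 0.721 to 0.789. The changes on fibronectin without fibronectin anti-ITGAV 3 were 0.055 ± 0.09 for Jun, 0.08 ± 0.09 for Junb, -0.02 ± 0.12 for Ier2 and -0.09 ± 0.12 for Ier3, none called. Fosb had 2 to 31 counts in a library and log2 changes of 0.04 ± 0.63 on uncoated dishes and -0.73 ± 0.60 on fibronectin (-1.14 ± 0.67 without fibronectin anti-ITGAV 3). All 10 genes had a positive log2 change with anti-ITGAV on uncoated dishes, with a median of 0.25 against 0.0143 over all genes tested. On fibronectin 5 of the 10 were positive, with a median of 0.031 against 1e-04. In the uncoated libraries rho with GC content was -0.141, -0.197, -0.296 and 0.403 with IgG, and 0.508, 0.198, 0.39 and -0.229 with anti-ITGAV. Every member had a higher GC content than at least 61.9% of the genes tested. The part of GC content in the shared direction on uncoated dishes was not tested.

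**Figure D2:**
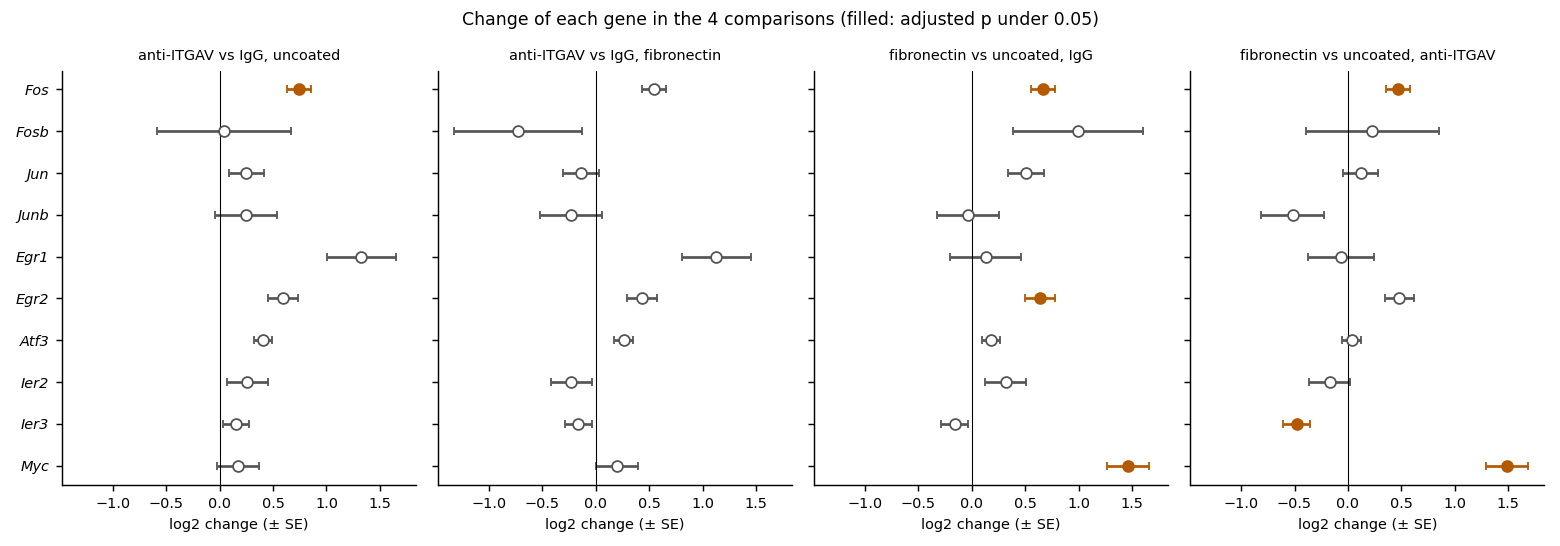
Log2 change ± SE of each gene in 4 comparisons, anti-ITGAV over IgG on each coating and fibronectin over uncoated under each antibody; filled points have an edgeR adjusted p under 0.05. With anti-ITGAV only Fos on uncoated dishes is filled (0.74), while for the coating Myc is filled under both antibodies at 1.46 and 1.49.

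Some markers of neutrophils, mast cells and basophils were lower with the antibody as well. The 16 neutrophil markers summed to 583 to 652 CPM in uncoated IgG, 479 to 538 CPM in uncoated anti-ITGAV, 463 to 560 CPM in fibronectin IgG and 332 to 512 CPM in fibronectin anti-ITGAV libraries, and none of them was at 0 throughout. With anti-ITGAV, 2 of the 16 were called lower on fibronectin, Ltf (-1.002 ± 0.11) and Lcn2 (-0.83 ± 0.11), and none on uncoated dishes. Over both coatings on average, 4 of the 16 were called lower, where 0.0323% of all genes (5 genes) were. The 4 were Ltf (-0.77 ± 0.08), Lcn2 (-0.64 ± 0.08), Camp (-0.72 ± 0.13) and S100a9 (-0.52 ± 0.08). The median log2 change of the 16 was -0.22 on uncoated dishes and -0.54 on fibronectin. The 8 mast cell and basophil markers summed to 31.9 to 39.3 CPM, 24.5 to 30.7 CPM, 17.3 to 21.3 CPM and 11.8 to 16.5 CPM in the same order of groups. None of the 8 was called with anti-ITGAV on either coating. On uncoated dishes 0 of them had a positive change (median -0.37), and on fibronectin 4 had (median -0.13). Averaged over coatings 1 was called lower, Prss34 (-0.65 ± 0.11). No B cell, dendritic cell, stromal or megakaryocyte marker was called with anti-ITGAV on either coating or in the average. The part of these cells in the member levels was not tested, and in bulk RNA fewer cells of a type cannot be told apart from less RNA per cell.

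Fibronectin coating moved other members. The coating comparisons share the 16 libraries with the antibody comparisons, so their values are set side by side and not counted as separate evidence. Under IgG, 3 of the 10 genes were called, all higher on fibronectin (Myc, Fos and Egr2), where 3.79% of all genes were called and 2.37% were called higher. Under anti-ITGAV, 2 were called higher (Myc and Fos) and 1 lower (Ier3), where 5.66% were called, 2.84% higher and 2.83% lower. Averaged over antibodies, Myc, Fos and Egr2 were higher and Ier3 lower, where 11.8% were called, 6.58% higher and 5.26% lower.

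Myc had the largest coating change among the members. It was at 5.46, 7.31, 7.45 and 11.04 CPM in uncoated IgG libraries and at 21.8, 17.7, 20.4 and 26.5 CPM in fibronectin IgG libraries. With anti-ITGAV it was at 10.6, 7.73, 9.76 and 7.21 CPM on uncoated dishes and at 24.3, 23.5, 20.4 and 31.1 CPM on fibronectin. All 8 fibronectin libraries were above all 8 uncoated ones. Myc rose by 1.46 ± 0.20 under IgG, or 2.76-fold (edgeR adjusted p = 0.000521), and by 1.49 ± 0.20 under anti-ITGAV, or 2.81-fold (edgeR adjusted p = 0.000418). It was called without any 1 of the 16 libraries in both comparisons, with edgeR adjusted p of at most 0.0036. The difference between these coating effects was 0.03 ± 0.28 (edgeR adjusted p = 0.973).

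Fos was 0.66 ± 0.11 higher on fibronectin under IgG, or 1.58-fold (edgeR adjusted p = 0.00237), and 0.47 ± 0.11 higher under anti-ITGAV, or 1.38-fold (edgeR adjusted p = 0.0178). The groups given above did not overlap in either comparison, and the level on fibronectin with IgG was close to that on uncoated dishes with anti-ITGAV (29.1 ± 2.43 against 30.7 ± 4.93 CPM, SD, n = 4 each). The highest group mean was that with both coating and antibody, 42.4 ± 2.51 CPM, and the lowest was that with neither, 18.4 ± 1.13 CPM. Under anti-ITGAV the Fos call was lost without uncoated anti-ITGAV 2 (edgeR adjusted p = 0.0577), 3 (0.0643) or 4 (0.0515), while under IgG it held without any 1 library.

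Egr2, too, was lowest in uncoated IgG and highest in fibronectin anti-ITGAV cells, with means of 5.67 ± 0.977, 8.57 ± 1.09, 8.84 ± 0.29 and 11.9 ± 1.34 CPM (SD, n = 4 each) in uncoated IgG, uncoated anti-ITGAV, fibronectin IgG and fibronectin anti-ITGAV libraries. It was 0.64 ± 0.14 higher on fibronectin under IgG, or 1.56-fold (edgeR adjusted p = 0.0159), and this call was lost without uncoated IgG 2 (0.0834), uncoated IgG 3 (0.0559) or fibronectin IgG 4 (0.0551). Under anti-ITGAV it was 0.48 ± 0.14 higher (edgeR adjusted p = 0.0504), just outside the threshold, and it was called without uncoated IgG 2 (0.0428), uncoated IgG 4 (0.04895) or fibronectin anti-ITGAV 3 (0.0266). Averaged over antibodies the change was 0.56 ± 0.10, or 1.48-fold (edgeR adjusted p = 0.00104), and it held without any 1 library.

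Egr1 and Atf3, the other members that were higher with anti-ITGAV without overlap on fibronectin, differed little by coating. Egr1 changed by 0.13 ± 0.34 under IgG and -0.07 ± 0.31 under anti-ITGAV, with edgeR adjusted p of 0.926 and 0.917. Atf3 changed by 0.18 ± 0.09 and 0.03 ± 0.09, with edgeR adjusted p of 0.332 and 0.842. A p that misses the threshold does not show that coating left these genes alone.

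Ier3, which encodes a small protein that modulates ERK signalling, was the 1 member called lower on fibronectin. It was at 26.3, 23.9, 20.55 and 21.6 CPM in uncoated IgG and at 16.5, 23.35, 21.6 and 21.1 CPM in fibronectin IgG libraries, which overlapped. With anti-ITGAV it was at 27.6, 27.1, 23.2 and 24.9 CPM on uncoated dishes and at 20.1, 17.7, 15.45 and 20.5 CPM on fibronectin, with no overlap. Ier3 fell by 0.48 on the log2 scale under anti-ITGAV (SE 0.13, edgeR adjusted p = 0.0323), and changed by -0.16 ± 0.12 under IgG (edgeR adjusted p = 0.63). The call under anti-ITGAV was lost without uncoated anti-ITGAV 1 (0.0931), 2 (0.101) or 4 (0.0505) and without fibronectin anti-ITGAV 2 (0.0582) or 3 (0.0536). Averaged over antibodies Ier3 fell by 0.32 (SE 0.09, edgeR adjusted p = 0.0242), a call lost without uncoated IgG 1 (0.0663) or uncoated anti-ITGAV 1 (0.0503) or 2 (0.0555).

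Jun, like Fos, Egr2 and Ier3, had coating results that changed when 1 library was left out. In fibronectin IgG libraries it was at 124.7, 146.5, 144 and 133 CPM, above every uncoated IgG library, with a log2 change of 0.51 ± 0.17 (edgeR adjusted p = 0.108). In fibronectin anti-ITGAV libraries it was at 139, 139, 71.2 and 148.0 CPM, and only library 3 was below the uncoated anti-ITGAV range of 102 to 131 CPM, so the groups overlapped (log2 change 0.12 ± 0.17, edgeR adjusted p = 0.698). Without fibronectin anti-ITGAV 3, Jun was called on fibronectin under IgG (0.51, edgeR adjusted p = 0.00079), under anti-ITGAV (0.31, edgeR adjusted p = 0.0426) and in the average (0.41, edgeR adjusted p = 0.000129). The comparison under IgG does not contain that library and reads it only through the joint fit of all 4 groups.

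Junb and Ier2 showed the same low value in that library. Junb was at 61.05, 78.3, 60.5 and 60.2 CPM in fibronectin IgG and at 68.2, 70.8, 15.3 and 67.4 CPM in fibronectin anti-ITGAV libraries. It changed by -0.04 ± 0.29 with coating under IgG and -0.52 ± 0.29 under anti-ITGAV (edgeR adjusted p = 0.983 and 0.311). The change of Junb under anti-ITGAV, leaving out fibronectin anti-ITGAV 3, was -0.20 ± 0.09 (edgeR adjusted p = 0.241). The 4 fibronectin anti-ITGAV libraries were all below the uncoated anti-ITGAV ones, as in 7.53% of all genes. Ier2 was at 15.4, 14.2, 12.5 and 13.8 CPM in uncoated IgG, 17.8, 15.3, 18.5 and 15.2 CPM in uncoated anti-ITGAV, 14.8, 18.6, 19.1 and 17.1 CPM in fibronectin IgG, and 16.6, 19.2, 7.89 and 15.8 CPM in fibronectin anti-ITGAV libraries. Its coating changes were 0.32 ± 0.19 and -0.17 ± 0.19 (edgeR adjusted p = 0.49 and 0.622), with overlap in both. Without that library the change of Ier2 under anti-ITGAV was 0.04 ± 0.12 (edgeR adjusted p = 0.894). Fosb changed by 0.996 ± 0.61 and 0.23 ± 0.62, with edgeR adjusted p of 0.498 and 0.857, and by -0.19 ± 0.68 under anti-ITGAV without that library.

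Members higher on fibronectin without overlap were Fos, Jun, Egr2 and Myc under IgG, where 7.89% of all genes were (5.26% were lower without overlap, none of them a member), and Fos, Egr2 and Myc under anti-ITGAV, where 6.55% were. Among macrophage markers Mertk was called lower on fibronectin under both antibodies (-0.46 and -0.38), and the other 14 were not called under either. In the average over antibodies 3 of the 15 were called lower, namely Mertk, Aif1 (-0.36 ± 0.07) and Adgre1 (-0.17 ± 0.05). The same neutrophil and mast cell markers moved with coating, with 1 and 7 of the 16 neutrophil markers and 3 and 2 of the 8 mast cell and basophil markers called lower on fibronectin under IgG and anti-ITGAV. B cell markers summed to 60.8 to 79.8 CPM on uncoated dishes and 29.96 to 44.9 CPM on fibronectin. Of 12 proliferation genes, 2 were called higher on fibronectin under each antibody and 5 in the average, Mcm3 and Rrm2 among them, but with upper-quartile factors 1 was called under IgG and 0 under anti-ITGAV. The part of any of these in the member levels was not tested.

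No member differed in its antibody effect between the coatings beyond the error. In the test of that difference edgeR called 0 of the 15469 genes (0%), 614 genes (3.97%) were under 0.05 before adjustment, and DESeq2 made 1 call, which was no member. The antibody effect on fibronectin minus that on uncoated dishes was -0.20 ± 0.16 for Fos, -0.15 ± 0.12 for Atf3, -0.16 ± 0.20 for Egr2 and -0.20 ± 0.46 for Egr1, with edgeR adjusted p from 0.646 to 0.86. It was negative for 9 of the 10 genes, Myc excepted, and the largest ratios to error were those of Ier2 (-0.49 ± 0.27) and Ier3 (-0.32 ± 0.18). These were, without fibronectin anti-ITGAV 3, -0.28 ± 0.16 and -0.24 ± 0.16, with Jun at -0.20 ± 0.12 and Junb at -0.17 ± 0.12, none called.

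The low values of Jun, Junb and Ier2 in library fibronectin anti-ITGAV 3 were set beside its trend on GC content. Junb has the highest GC content of the members, 62.6% of its longest transcript, above 98.9% of the genes tested, and Ier2 follows with 60.9%, against a median of 49.2% over all genes tested. Compared with the mean of the other 3 libraries of its group, Junb was -2.17, Ier2 -1.11 and Jun (55.5% GC) -0.997 on the log2 scale. After a smooth trend of log2 CPM on GC content was removed from each library, the deviations were -0.90 for Junb, -0.01 for Ier2 and -0.49 for Jun. Removal thus brought Ier2 to its group, while Junb and Jun stayed below theirs. The library also had 3.67% mitochondrial counts, and the cause of the low values was not tested. Fos (51.9% GC), Atf3 (52.2%) and Egr2 (51.4%) deviated by 0.12, 0.12 and -0.23 as counted and by 0.22, 0.25 and -0.17 after removal. Egr1, at 57.3% GC, was within 0.04 of its group as counted and 0.68 above it after removal. Fosb (56.0% GC), with 2 to 31 counts in a library, went the other way, at 1.327 as counted and 1.885 after removal. With the GC offset in the edgeR fit, the antibody average called Fos, Egr1, Egr2 and Atf3, and Fos was also called on fibronectin (log2 change 0.61, edgeR adjusted p = 0.0178).

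**Figure D3:**
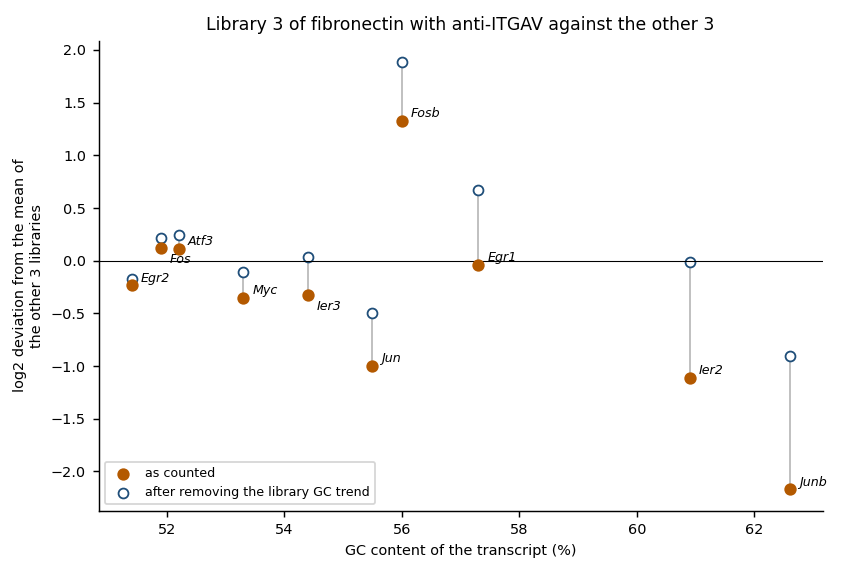
Log2 deviation of library fibronectin anti-ITGAV 3 from the other 3 libraries of its group against transcript GC content (%), for the 10 genes, as counted and after the GC trend was removed. Junb at 62.6% GC moves from -2.17 to -0.90 and Ier2 at 60.9% from -1.11 to -0.01, while Fos, Atf3 and Egr2 near 52% stay within 0.25 of the group.

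Genes that share sequence with a neighbour add a further limit for the Jun genes. The exons of Junb (ENSMUSG00000052837, chr8:84974484-84978718 on GRCm38, minus strand) share 173 bases, 7.5% of its exonic length, with Prdx2 on the opposite strand. Prdx2 had 4284 to 7495 counts in a library, against 567 to 3036 for Junb. Jun (ENSMUSG00000052684, chr4:95049034-95052222, minus strand, 1 exon) shares 232 bases, 7.3%, with the antisense transcript Junos, which had 43 to 121 counts. Whether counting used strand is not given in the sources used here, so reads from these stretches cannot be told apart. Fos (ENSMUSG00000021250, chr12:85473890-85477273, plus strand, 4 exons) and Egr2 (ENSMUSG00000037868, chr10:67535475-67542188, plus strand) overlap no other gene, nor does Myc (ENSMUSG00000022346, chr15:61985391-61990374, plus strand).

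Partners decide what a Fos or Jun protein can do, so the other bZIP genes were read next. Of the AP-1 proteins, Jun (median over 16 libraries 37.1 FPKM) and Junb (28.9 FPKM) were above Fos (12.4 FPKM) and Jund (10.1 FPKM), and Fosl2 (4.44 FPKM), Fosl1 (0.667 FPKM) and Fosb (0.0652 FPKM) were lower. Atf3 (61.2 FPKM) was below Maf (91.4 FPKM), a bZIP factor of mature macrophages. Atf4 (45.8 FPKM), the factor of the integrated stress response, and Cebpb (29.6 FPKM), a factor of macrophage activation, were also abundant. Of the 18 other bZIP genes tested none was called in either antibody comparison or in their average. With coating, Fosl1, a Fos relative that ERK signalling induces and stabilizes, rose by 1.37 ± 0.33 under IgG (edgeR adjusted p = 0.0279) and was 1.05 ± 0.33 higher under anti-ITGAV (edgeR adjusted p = 0.0699). In the average over antibodies Fosl1 was higher (1.21 ± 0.23, edgeR adjusted p = 0.00218) and Atf5 lower (-0.34 ± 0.10, edgeR adjusted p = 0.032). Fosl2 and Jund changed by 0.27 ± 0.10 and 0.13 ± 0.15 with anti-ITGAV on uncoated dishes, neither called.

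**Figure D4:**
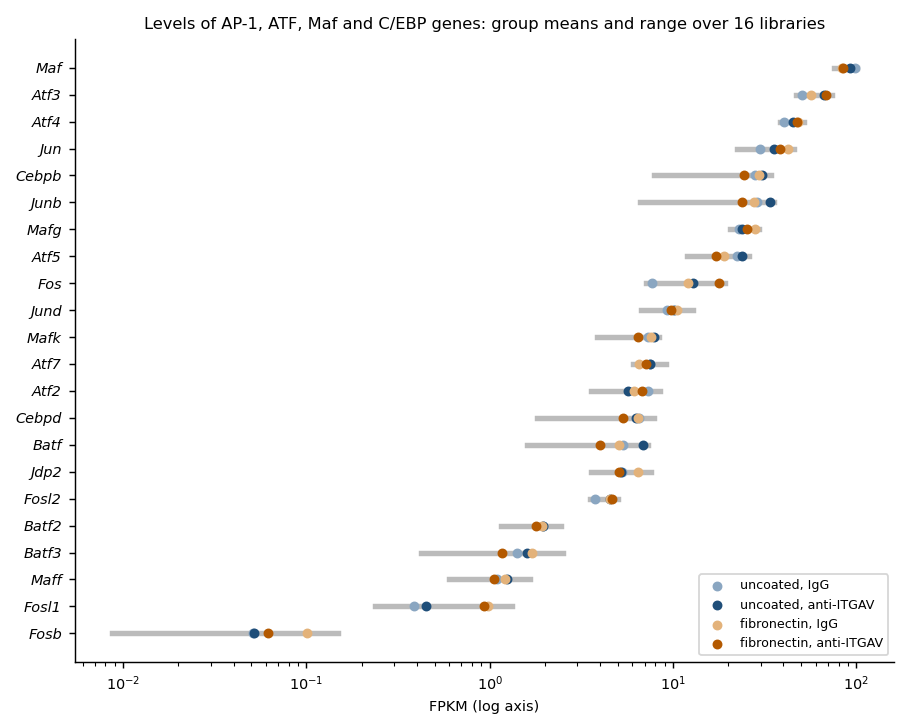
Deposited FPKM on a log axis of 22 bZIP genes, the 5 members and 17 others, with the mean of each group as points and the range over 16 libraries as lines. Atf3 is among the highest with a median of 61.2 FPKM, Fos lies at 12.4 FPKM with its group means spread from 7.71 to 17.8 FPKM, and Fosb is lowest at 0.0652 FPKM.

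Other immediate early genes did not move as a block. Of 50 such genes outside the 10 (49 tested, with Egr4 listed at 0 counts in all libraries), none was called with anti-ITGAV on either coating. In the antibody average 1 was called, Plk2, a polo-like kinase induced by growth factors, at 0.41 ± 0.07 (edgeR adjusted p = 0.0218). Egr3, the nearest relative of Egr2, was 1.17 ± 0.40 higher with anti-ITGAV on uncoated dishes and 0.87 ± 0.39 on fibronectin, and Dusp5, a nuclear ERK phosphatase, 0.83 ± 0.20 on uncoated dishes, none of them called (edgeR adjusted p = 0.988, 0.721 and 0.495). On fibronectin under IgG 3 were called higher and 1 lower: Klf2 (0.72 ± 0.12), Sgk1 (0.46 ± 0.08) and Plk3 (1.196 ± 0.22) rose, and Gadd45a, a growth arrest gene, changed by -0.73 ± 0.14. Under anti-ITGAV 5 were higher and 4 lower, led by Rgs1 (1.31 ± 0.25), Sgk1 (0.43 ± 0.08), Bhlhe40 (0.56 ± 0.11) and Gadd45a (-0.69 ± 0.14). The median of the 49 was 0.14 under IgG and 8e-04 under anti-ITGAV, against 0.002 and 0.0078 over all genes. Without fibronectin anti-ITGAV 3 the counts were 8 higher and 6 lower under IgG and 6 and 5 under anti-ITGAV.

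Feedback genes of ERK, which ERK activity induces, were next. Of 15 tested (Dusp5 is also on the immediate early list), 5 were called higher and none lower on fibronectin under IgG, and 7 higher and 1 lower under anti-ITGAV, with median log2 changes of 0.46 and 0.61, against 0.002 and 0.0078 over all genes. The phosphatase Dusp4 rose by 1.33 ± 0.18 under IgG and 1.203 ± 0.18 under anti-ITGAV, and the ERK phosphatase Dusp6 by 0.86 ± 0.12 and 0.72 ± 0.12. Etv5, an ETS factor, rose by 0.79 ± 0.13 and 0.67 ± 0.13. Spry2, an inhibitor of receptor signalling, rose by 0.83 ± 0.13 and 0.58 ± 0.13, and Spred2 by 0.68 ± 0.11 and 0.66 ± 0.11, each called under both antibodies. The 1 called lower was Ier3, which is also a member. The summed level of the 16 listed genes was 574 to 643 CPM over the uncoated libraries and 832 to 930.4 CPM over the fibronectin libraries. With anti-ITGAV none of the 15 was called on either coating, and their medians were 0.04 and 0.03. Without fibronectin anti-ITGAV 3 the coating counts were 6 higher under IgG and 5 under anti-ITGAV, with none lower in either.

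The kinases and factors upstream were read as well. Of 20 genes of the ERK cascade, 1 was called higher on fibronectin under IgG, the ribosomal S6 kinase gene Rps6ka2 (0.56 ± 0.13). Under anti-ITGAV, Mapkapk3 (-0.41 ± 0.11) was called lower, but no gene of the list was called lower without fibronectin anti-ITGAV 3. Of 14 JNK and p38 genes none was called by edgeR in the 4 comparisons of a pair of groups (1 lower with coating under each antibody without fibronectin anti-ITGAV 3), and Map3k1 (-0.35 ± 0.09) and Mapk14 (-0.21 ± 0.05) were lower in the average over antibodies. Of 8 serum response factor genes, Elk3, an ETS partner of serum response factor, was called higher on fibronectin under IgG (0.33 ± 0.09, edgeR adjusted p = 0.0492), but none of the 8 was called there with RLE or upper-quartile factors. None of these 3 lists held a gene called with anti-ITGAV.

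Some antagonists of Myc were lower where Myc was higher. Of 9 tested genes of its partners and antagonists, Mxd4, which competes with Myc for its partner Max, was lower on fibronectin under IgG (-0.52 ± 0.13, edgeR adjusted p = 0.0294) and under anti-ITGAV (-0.79 ± 0.13, edgeR adjusted p = 0.00196). Mxd1, another antagonist, changed by -0.48 ± 0.11 (edgeR adjusted p = 0.0124) and Mlxip by -0.30 ± 0.08 (edgeR adjusted p = 0.0336) under anti-ITGAV. No gene of the network was called higher. Of 25 targets of Myc, mostly of ribosome production and growth, 11 were called higher and none lower on fibronectin under IgG, and 12 and none under anti-ITGAV. Positive changes were seen in 23 and 24 of the 25, with medians of 0.50 and 0.45. Nop56, a ribosomal RNA processing factor, rose by 0.72 ± 0.10 and 0.75 ± 0.10, and Odc1, the first enzyme of polyamine synthesis, by 0.72 ± 0.10 and 0.66 ± 0.10. Nolc1 rose by 0.68 ± 0.11 and 0.52 ± 0.11, called under both antibodies. Ccnd2 (0.78 ± 0.12) rose under IgG, and Nop58 (0.92 ± 0.19) and Eif4e (0.78 ± 0.16) under anti-ITGAV. Under the other antibody Ccnd2 (0.40 ± 0.12), Nop58 (0.56 ± 0.19) and Eif4e (0.29 ± 0.16) were higher but not called. The 25 summed to 2699 to 3080 CPM over the uncoated and 3627 to 4139 CPM over the fibronectin libraries. Without fibronectin anti-ITGAV 3, 15 of the 25 were called higher under each antibody, and with the GC offset 19 and 21. None of the 25 was called with anti-ITGAV on either coating.

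**Figure D5:**
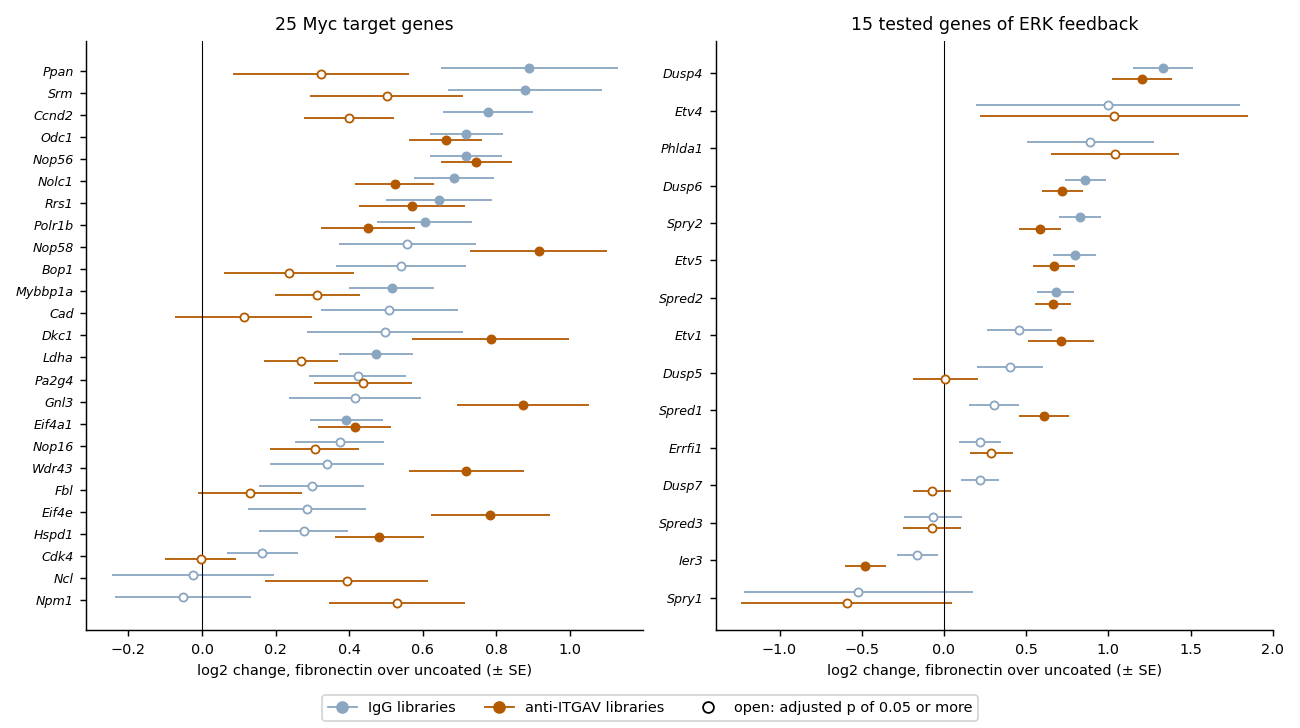
Log2 change ± SE of fibronectin over uncoated for 25 Myc target genes and 15 ERK feedback genes, in IgG and in anti-ITGAV libraries; open points have an edgeR adjusted p of 0.05 or more. Under IgG 11 Myc targets and 5 feedback genes are filled, all to the right of 0, with Dusp4 farthest at 1.33.

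Genes known in macrophages as targets of Egr or AP-1 factors in some settings were also read. Of 17 tested, 7 were called higher and 1 lower on fibronectin under IgG and 8 and 1 under anti-ITGAV, with medians of 0.49 and 0.40. Plau, the urokinase gene, rose by 1.40 ± 0.16 and 1.36 ± 0.16, and its receptor Plaur by 1.123 ± 0.14 and 0.90 ± 0.14. Tnf rose by 1.26 ± 0.16 under IgG, and the elastase gene Mmp12 by 1.197 ± 0.18 under anti-ITGAV. Thbs1, which encodes thrombospondin-1, was the 1 lower gene, at -1.21 ± 0.10 and -1.36 ± 0.10. With anti-ITGAV none of the 17 was called. On uncoated dishes the log2 changes were 0.42 ± 0.10 for Thbs1, 0.38 ± 0.10 for Vegfa and 0.45 ± 0.16 for Tnf, with edgeR adjusted p of 0.495, 0.585 and 0.988. Heat shock genes, which can rise when cells are handled, were also read. Of 10, none was called with anti-ITGAV or on fibronectin under IgG, and 2, Hsp90aa1 (0.88) and Hsph1 (0.35), were higher on fibronectin under anti-ITGAV (1 without fibronectin anti-ITGAV 3 or with upper-quartile factors).

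The genes most like each member over the 16 libraries were found by Pearson correlation of log2 CPM among 10898 protein-coding genes (10899 for Fosb), as a description that includes the group differences. Myo1e, an unconventional myosin, was the most like Fos (r = 0.954) and the most like Egr2 (0.925), followed for Fos by Clic4 (0.942) and Fzd7 (0.915), and for Egr2 by Fos itself (0.898) and Xylt1 (0.892). Rab7b (0.90), Mapre2 (0.877) and Arhgap25 (0.874) were most like Atf3. Plau (0.981), Ets2 (0.974) and Dusp4 (0.968) were most like Myc. Egr1 had lower likeness, with Slc23a2 (0.742), Atf3 (0.734) and Dlg3 (0.73), and so had Fosb, with Mtmr7 (0.73), Zfp850 (0.726) and Fam196b (0.725). For Jun they were Fam129b (0.991), Hmga1 (0.989) and Slc27a1 (0.984), for Junb Furin (0.986), Nr1h2 (0.984) and Gaa (0.984), and for Ier2 Map3k6 (0.957), Smurf1 (0.954) and S100a4 (0.951). These last 3 members are those that were low in fibronectin anti-ITGAV 3, and that 1 library weighs on their correlations. Ier3 was most like Gadd45b (0.90), Acox3 (0.891) and Acss1 (0.885).

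Within groups, after each group's mean was subtracted, some pairs of members varied together. Jun, Junb and Ier2 had r = 0.926 (Jun with Junb), 0.892 (Jun with Ier2) and 0.916 (Junb with Ier2) over 16 libraries. Without fibronectin anti-ITGAV 3 these were 0.395, 0.419 and 0.454, and with the GC trend removed 0.795, -0.036 and 0.032. Fos and Atf3 had r = 0.56, with 0.535 without that library and 0.524 with the GC trend removed. Fos and Egr2, which shared their lowest and highest group, had r = 0.13 within groups, and Egr1 and Egr2 had -0.369. The libraries share depth and base composition, so these values describe the libraries and carry no test.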

How the data were processed

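Poly-A RNA of 16 libraries was sequenced as paired ends, and the authors deposited a table of raw counts per gene and a table of FPKM, with 54532 genes each. Per the submitters' processing notes, HISAT2, StringTie and featureCounts were used with mouse build mm10 (GRCm38.p6); the role of each tool, its version and the strand setting were not given in the sources used here. In the FPKM the authors deposited, each value equalled the count over gene length and over a library-wide divisor, which lay at 0.989 to 1.04 of the total count. Such scaling keeps any trend of a library on GC content.

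Groups came from the sample labels. Counts were fitted in edgeR 4.0.16 (R 4.3.3) with TMM factors, filterByExpr with a minimum count of 10, which kept 15469 genes, and the robust quasi-likelihood test on all 4 groups, so that 12 residual degrees of freedom give 1 shared spread. P-values were adjusted by Benjamini-Hochberg over all genes tested, with a threshold of 0.05. Contrasts were the antibody on each coating, the coating under each antibody, both averages and the interaction. CPM are counts per 1000000 of the TMM-scaled total. FPKM served for levels between genes. Total counts of 27995035 to 43413650 per library gave a median SE of 0.19 on the log2 scale. Alternatives (30 in all) used DESeq2 1.42.0, limma 3.58.1, other scalings and filters, a GC offset (a smooth trend of log2 CPM with a prior count of 2, GC known for 15457 genes), a replicate block and each library left out. Scripts were tested on simulated data.

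The 10 genes and the 22 gene lists were chosen with earlier results of these data known. Besides the 10, the text names of each list up to 4 genes with the smallest adjusted p in a comparison, and for each member the 3 most correlated protein-coding genes with a mean of at least 1 CPM. Some listed genes are not reported here. One listed symbol, Mxd2, had no entry in the count table. Motifs were searched on both strands in RefSeq windows; TGACG matches inside TGACGTCA would count for both.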

Additional observations from a re-analysis of the deposited data

Results flagged for a closer look

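In each gene and group the highest and the lowest of the 4 libraries were set against the other 3 by Dixon's test, and 3 of the 40 groups held a library far from the rest, where chance gives about 1 in 20. Jun in fibronectin anti-ITGAV 3 was at 71.2 CPM, below the other 3 libraries of its group at 139 to 148.0 CPM. Junb in the same library was at 15.3 CPM, against 67.4 to 70.8 CPM in the others. Junb in fibronectin IgG 2 was at 78.3 CPM, above the 60.2 to 61.05 CPM of its group, and that library had the highest rho with GC content of the 16, at 0.546. The part of GC content in the value of fibronectin IgG 2 was not tested.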

How the results depend on the processing

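Over the 7 comparisons and 30 alternatives, 1847 member values kept direction and side of the threshold, 63 gained a call, 34 lost one and 91 changed sign, and no scaling moved the median of all genes by over 0.1. Values are limited by depth for Fosb and Egr1, and where a value below changes with a setting the cause was not tested. The fit without fibronectin anti-ITGAV 3 with a GC offset was chosen after seeing the data, and is called the reduced GC fit below.

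The count of members called with anti-ITGAV on uncoated dishes (1) was 4 with DESeq2, 3 with voom quality weights, 2 in the reduced GC fit, and 0 with limma on log2(FPKM + 1) without a filter or with only the libraries compared, and 0 to 1 when 1 library was left out. On fibronectin (0) it was 1 with DESeq2, the GC offset or voom, 2 in the reduced GC fit, and 0 whichever library was left out. The antibody average (1) gave 4 with DESeq2, the GC offset and the reduced GC fit, 3 with voom or limma on log2(FPKM + 1), 2 with log2(FPKM + 0.1), RLE factors, no filter or at least 1 CPM in 4 libraries, and 1 to 3 when 1 library was left out. Coating under IgG (3) gave 2 to 4 when 1 library was left out. Coating under anti-ITGAV (3) gave 5 with the GC offset or voom, 1 with only the libraries compared, and 1 to 4 with 1 library left out (1 without uncoated anti-ITGAV 2 or 4). The coating average (4) gave 6 with the GC offset, with or without the replicate block, and 3 to 5 with 1 library left out.

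No pairing of the libraries by replicate number was seen in their deviations from the group means. The 24 same-number pairs had correlations of -0.301 to 0.277 (median -0.0236, 4 over 0.1), and 5 of 16 libraries were closest to their own number. These deviations also carry the GC trend of each library, so a pairing hidden beneath that trend was not tested. With the replicate block, members called were 0 for the antibody on uncoated dishes, 3 and 2 for coating under IgG and anti-ITGAV, 1 for the antibody average, and 4 with block and GC offset. Genes called with the block were 0, 3, 360, 600, 8 and 1519 for the antibody on uncoated dishes and fibronectin, coating under IgG and anti-ITGAV, and the antibody and coating averages.

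Over all genes the same 6 counts were 2, 2, 586, 876, 11 and 1831 in edgeR, 28, 19, 1059, 1601, 51 and 2382 with DESeq2, 59, 6, 1870, 2080, 43 and 3492 with voom, 6, 7, 1685, 1918, 43 and 3346 with the GC offset, and 21, 12, 2327, 2041, 62 and 3700 in the reduced GC fit. The interaction stayed at 0 except with DESeq2 (1). With only the libraries compared the first 4 were 3, 0, 831 and 251. Leaving out 1 library gave 0 to 2, 1 to 5, 253 (without uncoated IgG 1) to 1325 (without fibronectin anti-ITGAV 3), 428 (without uncoated anti-ITGAV 2) to 1037, 4 to 22 and 1325 to 2468.

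Signs changed mostly for values near 0. Fosb on uncoated dishes with anti-ITGAV was -0.20 with the block, -0.0368 with the GC offset and in the reduced GC fit, -0.30 with replicate block and GC offset and -0.77 with voom. On fibronectin with anti-ITGAV, Ier2 was 0.0182 with the GC offset, with or without the replicate block, and 0.0254 in the reduced GC fit, Jun was 0.0657 with voom and 0.0999 in the reduced GC fit, and Junb 0.109 and 0.129. With coating under IgG, Egr1 was -6e-04 with replicate block and GC offset. With coating under anti-ITGAV, Egr1 was 0.203 with the GC offset, 0.236 with block and GC offset, 0.0903 with voom and 0.0194 in the reduced GC fit, Ier2 was 0.112, 0.113, 0.0087 and 0.119, and Fosb was -0.122 in the reduced GC fit. In the interaction, Myc was -0.0081 with the replicate block and -0.0726 with voom, Egr1 was 0.145 with the GC offset and 0.236 with block and GC offset, and Atf3 0.0153 and 0.0123. In the antibody average, Ier3 was 0.0069 with upper quartile scaling, 0.0195 with the GC offset, 0.0188 with block and GC offset, 0.0157 in the reduced GC fit, 0.0378 with voom, 0.0031 with limma on log2(FPKM + 1) with or without a filter and 0.0026 with log2(FPKM + 0.1). Junb there was -0.0301 with the replicate block, -0.0843 with log2(FPKM + 1) with or without a filter and -0.0965 with log2(FPKM + 0.1), and Ier2 -0.0122 and -0.0167 in these limma fits.

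Leaving out 1 library gave ranges across 0 for the antibody on uncoated dishes (Fosb -0.423 to 0.371) and on fibronectin (Jun -0.228 to 0.055, Junb -0.378 to 0.0817), for coating under IgG (Junb -0.138 to 0.0117, Egr1 -0.0489 to 0.281) and under anti-ITGAV (Egr1 -0.328 to 0.165, Fosb -0.186 to 0.693, Atf3 -0.0054 to 0.0899, Ier2 -0.33 to 0.0417), for the interaction (Myc -0.192 to 0.163, Egr1 -0.457 to 0.036), for the antibody average (Ier3 -0.0592 to 0.0333, Junb -0.0711 to 0.165, Ier2 -0.0691 to 0.119) and for the coating average (Egr1 -0.0994 to 0.147, Ier2 -0.0165 to 0.18).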
